A study of Drosophila melanogaster with 12 samples.

Results

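The genes described here are named for the proteins of the cytoplasmic ribosome of Drosophila melanogaster. They were chosen by name alone: every Release 6 gene, pseudogenes left out, whose symbol begins with RpL (large subunit) or RpS (small subunit), and not mRpL or mRpS, which mark the mitochondrial ribosome. This gave 92 of 13946 protein-coding genes on the chromosome arms, 54 for the large and 38 for the small subunit. The name also takes in 5 genes ending in -like, not all of which need be parts of the mature ribosome. RpLP0-like, for example, is known as an assembly factor. Binding of ORC2, part of the origin recognition complex, had been mapped by ChIP-seq in the fat body of wild-type OregonR male larvae at 3 stages: 2nd instar (68hr, picked 67 to 68 h after egg laying), mid-3rd instar (92hr, picked 91 to 92 h after egg laying) and late-3rd instar (3WL, wandering larvae). Each stage had 2 ORC2 libraries and 2 input libraries, 12 in all, from 60 to 120 larvae whose fat body was dissected by hand and cleared of testes. The input libraries entered only as the control against which peaks were called. All groups shared the strain, the sex and the tissue. The files hold positions of called peaks and no expression, so the tissue label could not be checked against marker genes.

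The origin recognition complex loads the replicative helicase onto DNA and so marks where replication can start. In flies it has no fixed target sequence and is commonly found in open chromatin near the starts of active genes. The larval fat body grows by endocycles, rounds of DNA replication without division, which end as larvae mature. Ribosomal protein genes are among the most highly transcribed genes of growing cells, and loss of 1 copy of many of them gives the Minute phenotype of slow growth and short bristles.

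The genes lay on all major arms: 23 on 3R, 21 on 2R, 19 on 2L, 14 on X, 14 on 3L and 1, RpS3A, on chromosome 4. They were short, with a median span of 1315 bp (304 to 4677 bp) against 2161 bp over all protein-coding genes. Another protein-coding gene lay within 1 kb of 83 of them (90.2%), close to the 87.4% of all protein-coding genes. A gene was counted as having ORC2 when a listed site met its span extended by 1 kb to each side. A site in so dense a neighbourhood is therefore often within 1 kb of a neighbour too. 2 kinds of site were listed per stage: regions, which are the merged MACS2 peaks of either replicate, and high-confidence peaks, which had an irreproducible discovery rate (IDR) between the replicates under 0.1. The IDR estimates the share of peaks at or above a rank that would fail to recur, so lower is more reproducible.

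ORC2 regions lay at a larger share of ribosomal protein genes than of protein-coding genes at 2nd and mid-3rd instar in both replicates, and at late-3rd instar in replicate 2 only. Both shares were lower at each later stage. At 2nd instar 49 of the 92 genes had a region, 53.3% (95% Wilson interval 43.1 to 63.1), against 33.1% of all protein-coding genes. At mid-3rd instar 37 genes had one, 40.2% (30.8 to 50.4), against 18.5%. At late-3rd instar 9 genes had one, 9.78% (5.23 to 17.6), against 4.95%, but without replicate 2 only 1 gene (1.09%) was left, against 1.93%. The members' share was 1.61, 2.17 and 1.98 times that of all genes at the 3 stages in turn. The intervals cover counting error only, genes that share a region or a neighbourhood are not independent, and no test of the list as a whole was made.

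Short genes offer less room for a site, so the shares were also set beside protein-coding genes weighted to the lengths of the ribosomal protein genes. This weighted share was 24.9% at 2nd instar, then 13.1% at mid-3rd instar and 2.99% in wandering larvae, and the members' share was 2.14, 3.07 and 3.27 times as large. Where only regions with peaks of both replicates were counted, 29 ribosomal protein genes (31.5%) had one at 2nd instar, against 20.7% of all genes. The corresponding numbers were 14 (15.2%, against 5.87%) at mid-3rd instar and 1 (1.09%, against 0.509%) at late-3rd instar. Assigning each region only to the gene or genes nearest its midpoint left 35 members (38.0%, against 20.6%), 23 (25.0%, against 11.1%) and 4 (4.35%, against 3.44%) at the 3 stages in turn. This last count was added after the data were seen.

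High-confidence peaks lay at 14 ribosomal protein genes at 2nd instar, 15.2% (9.29 to 23.9), against 8.38% of all protein-coding genes. There were 11 at mid-3rd instar, 12.0% (6.81 to 20.2), against 2.83%. At late-3rd instar none of the 92 had one, against 0.215% of all genes, where the stage's list held 60 peaks in all. The ratio to all genes was thus 1.82 at 2nd instar and 4.22 at mid-3rd instar. Counting only genes nearest the midpoint gave 6 members (6.52%, against 5.03%) at 2nd instar and 8 (8.7%, against 1.7%) at mid-3rd instar, so the 2nd instar excess shrank to 1.3 times under that rule. At late-3rd instar it gave 0 members, against 0.179%.

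**Figure D1:**
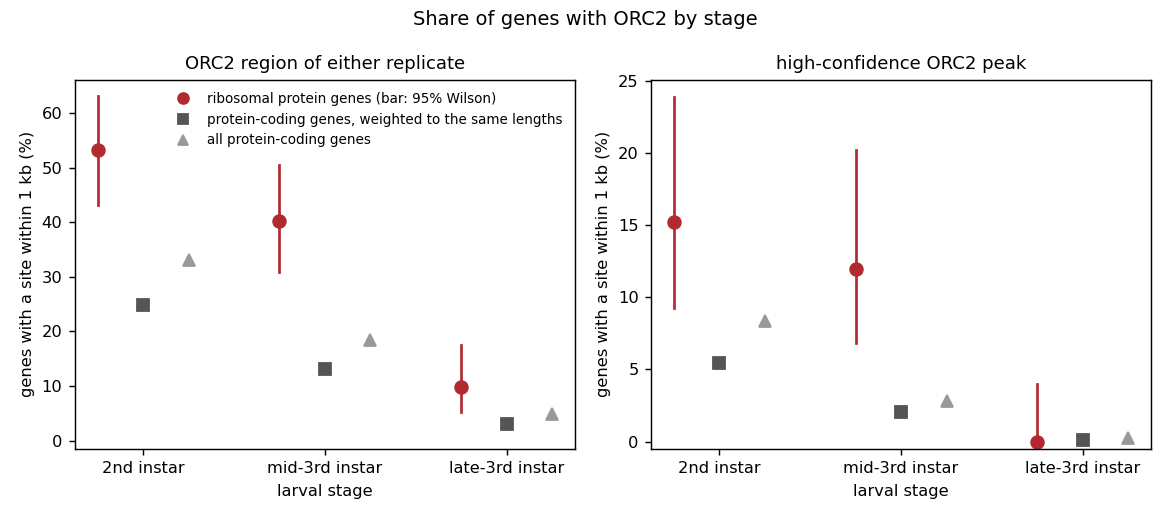
The percentage of genes with an ORC2 site within 1 kb is plotted by larval stage, on the left for regions of either replicate and on the right for high-confidence peaks. Circles are the 92 ribosomal protein genes with 95% Wilson intervals, squares the protein-coding genes weighted to the same lengths and triangles all 13946 protein-coding genes. The circles lie above both other marks at 2nd and mid-3rd instar, for example 53.3% against 24.9% and 33.1% for 2nd instar regions.

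Most genes with a region at a later stage also had one earlier, among the members as among all protein-coding genes. Of the 37 members with a mid-3rd instar region 30 (81.1%) had one at 2nd instar, close to the 79.8% over all genes. A region was present at all 3 stages at 9 ribosomal protein genes (9.78%, against 3.76% of all protein-coding genes), at 2nd and mid-3rd instar but not later at 21 (22.8%, against 11.0%) and at 2nd instar only at 19 (20.7%, against 17.7%). A further 7 had a region at mid-3rd instar only (7.61%, against 3.57%), and none of the 92 had one at late-3rd instar only (against 0.33%), at 2nd and late-3rd instar alone (0.674%) or at mid-3rd and late-3rd instar alone (0.179%). Of the 49 genes with a 2nd instar region, 30 (61.2%) also had one at mid-3rd instar, against 44.6% of all genes that had a 2nd instar region. All 9 genes with a late-3rd instar region had one at both earlier stages. Of the 690 protein-coding genes with a late-3rd instar region 525 did.

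The 14 genes with a 2nd instar high-confidence peak all had a region within 1 kb at mid-3rd instar, against 70.8% of all genes with such a peak. These counts are per gene, and the site could differ between stages. At RpS13 the 2nd instar peak (chr2L:8362035-8362955) lay beyond the lower-numbered end of the gene. Its mid-3rd instar region (chr2L:8365520-8366119) lay beyond the higher-numbered end. Of the 14 genes, 8 had a high-confidence peak at mid-3rd instar as well (57.1%, against 22.2%), and 8 had a region at late-3rd instar (57.1%, against 31.5%). The 8 genes on the high-confidence lists of both 2nd and mid-3rd instar were 8.7% of the 92, against 1.86% of all protein-coding genes. They made up 72.7% of the 11 members on the mid-3rd instar list, against 65.6% for all genes on it. A high-confidence peak at any stage was listed at 17 members (18.5%, against 9.42%).

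**Figure D2:**
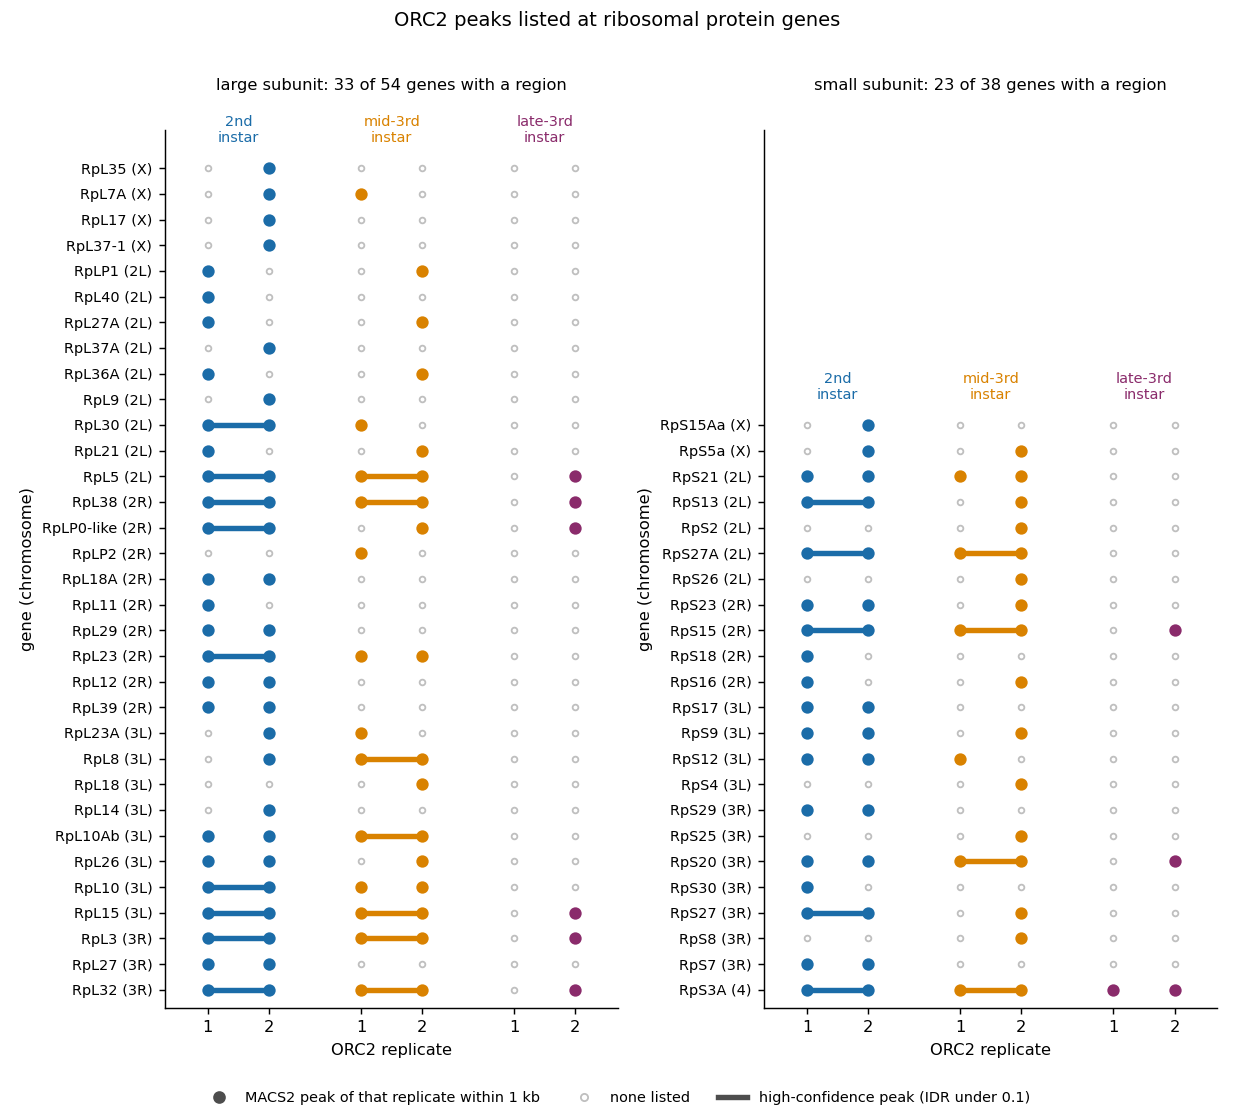
Each row is a ribosomal protein gene with an ORC2 region at any stage, named with its chromosome, for the large subunit on the left and the small subunit on the right. Filled circles mark a MACS2 peak of that replicate within 1 kb, open circles none, and a bar joining the pair marks a high-confidence peak. Of the 92 genes 56 are shown. At late-3rd instar the filled circles stand in replicate 2, with RpS3A the 1 gene also filled in replicate 1.

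The replicates differed in how many genes they marked. Peaks of replicates 1 and 2 lay at 38 and 40 ribosomal protein genes at 2nd instar, 19 and 32 for the mid-3rd instar pair, and 1 and 9 for the late-3rd instar pair. The 2nd instar pair thus stood close together and above the other libraries, while at the later stages replicate 2 was the higher. The same libraries marked 29.4% and 25.0% of all protein-coding genes at 2nd instar, 7.94% and 16.7% at mid-3rd instar, and 1.93% and 3.78% at late-3rd instar. The members' share was 1.41 and 1.74 times that of all genes at 2nd instar, 2.6 and 2.09 times at mid-3rd instar, and 0.564 and 2.59 times at late-3rd instar. The late-3rd instar excess was therefore seen in replicate 2 and not in replicate 1, where 1 of 92 genes was marked. The number of listed peaks was also lower at the later stages, at 4277 and 3831 for 2nd instar, 930 and 1994 for mid-3rd instar, and 370 and 500 for late-3rd instar, and its part in the stage differences was not tested. Within 2nd instar replicate 1, which had more peaks, marked 38 of these genes on the autosomes and 0 on the X. Replicate 2 marked 34 and 6.

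Over libraries, 25.5 ± 9.19 genes were marked at mid-3rd instar and 39.0 ± 1.41 at 2nd instar (SD, n = 2 each), a difference of -13.5 genes with an exact two-sided permutation p = 0.33. Late-3rd instar, at 5.0 ± 5.66 genes, differed from 2nd instar by -34.0 genes and from mid-3rd instar by -20.5 genes, each with an exact permutation p = 0.33 (n = 2 each). No pair of stages overlapped, but 0.33 is the smallest p that 2 libraries against 2 can give. When the share of all protein-coding genes in the same library was subtracted, the change between mid-3rd and 2nd instar turned to +0.176 percentage points (exact permutation p = 1.0, n = 2 each). The direction of this difference thus depended on whether it was set against genes in general.

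The large-subunit genes with the most reproducible 2nd instar peaks were RpL15, RpL10, RpL5, RpL38, RpL30, RpL23 and RpL3. RpL15 and RpL5 lie in pericentromeric heterochromatin, and RpL38 does so on the right arm of chromosome 2. Among the 797 high-confidence 2nd instar peaks, the peak at RpL15 (chr3L:27266311-27268376) ranked 27th by IDR at 2.14e-05. It covered 1122 bp of the 1191 bp gene and reached past its lower-numbered end. At mid-3rd instar 2 high-confidence peaks were listed there (IDR 0.051 and 0.0659), and at late-3rd instar a 600 bp region of replicate 2 (chr3L:27266933-27267532) remained.

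RpL5, which joins RpL11 and an rRNA of the large subunit in a particle that is built before the ribosome, had a 2nd instar peak at chr2L:22536248-22539051 with an IDR of 4.44e-05 (40th). It lay across the higher-numbered end of the gene, and its midpoint fell nearer to CG17490. The mid-3rd instar peak (chr2L:22536427-22537038, IDR 0.0134) was within the same stretch and had the lowest IDR of any member at that stage. A replicate 2 region at chr2L:22536463-22537062 was listed at late-3rd instar. RpL38 kept the same pattern, with a peak at 2nd instar (chr2R:4515462-4517402, IDR 0.000238, 59th), another at mid-3rd instar (IDR 0.0381) and a replicate 2 region at late-3rd instar. Its high-confidence peaks were listed as 1941 and 844 bp wide. The merged regions there did not narrow in this way, at 605, 626 and 600 bp at the 3 stages in turn. No other protein-coding gene lay within 1 kb of the RpL38 or RpL15 peaks.

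RpL3, which lines the peptidyl transferase centre, had peaks over its lower-numbered end at 2nd instar (chr3R:11221539-11222269, IDR 0.00429, 143rd) and mid-3rd instar (chr3R:11221482-11222116, IDR 0.0443). A replicate 2 region at chr3R:11221441-11222040 followed at late-3rd instar, with its midpoint nearer to CG6693. RpL32, known as rp49 and long used as a reference gene for expression in flies, had its peaks just beyond the higher-numbered end. They stood at chr3R:30046168-30046826 at 2nd instar (IDR 0.0187) and chr3R:30046174-30046965 at mid-3rd instar (IDR 0.0283), with no base inside the gene, and both midpoints were nearer to CG7943. A late-3rd instar region of replicate 2 lay at the same place.

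RpL10, which sits close to the tRNA sites and is needed for subunit joining, had the 35th peak by IDR at 2nd instar (chr3L:23094686-23096077, IDR 2.94e-05). RpL30 (chr2L:19009091-19009641, IDR 0.00048) and RpL23, a protein of the subunit interface (chr2R:22853759-22854432, IDR 0.0024), ranked 75th and 118th. The peak at RpL23 overlapped that gene by 50 bp and was nearer to CG13531. All 3 genes still had a region at mid-3rd instar, of both replicates at RpL10 and RpL23 and of replicate 1 at RpL30. None of the 3 was on the high-confidence list of mid-3rd instar or had a region later.

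In the small subunit the lowest 2nd instar IDR of all 92 genes belonged to RpS27A, which encodes a fusion of ubiquitin with a ribosomal protein. Its peak (chr2L:10407951-10408567, IDR 1.9e-05, 24th) lay across the lower-numbered end of the gene, with the midpoint nearer to Ir31a. The mid-3rd instar peak at chr2L:10408045-10408577 had an IDR of 0.0568, and no region was listed at late-3rd instar. RpL40, the other ubiquitin fusion, had a 2nd instar region of replicate 1 and none later.

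RpS3A, the Minute gene of chromosome 4, was the 1 member whose late-3rd instar region named peaks of both replicates (chr4:66993-69133, with 1 peak of replicate 1 and 2 of replicate 2). A second late-3rd instar region of replicate 2 lay at chr4:64457-65056. At 2nd instar its high-confidence peak spanned 4677 bp (chr4:66020-70696, IDR 4.91e-05, 41st), and its midpoint was nearer to the neighbouring gene pan, a Wnt pathway transcription factor. The mid-3rd instar peak (chr4:67081-67861, IDR 0.0169) lay at the higher-numbered end of RpS3A. Most genes of chromosome 4 were marked: of its 80 protein-coding genes 88.8%, 70.0% and 62.5% had a region at the 3 stages in turn. Genes there were long, with a median span of 10090 bp against 2161 bp over all protein-coding genes, and these shares were not weighted to length.

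RpS15 had high-confidence peaks at 2nd (chr2R:16571676-16572315, IDR 0.0319) and mid-3rd instar (chr2R:16571648-16572634, IDR 0.0372), and a late-3rd instar region of replicate 2. All of these peaks lay outside the gene and nearer to CG4927, and the nearest region was 281, 291 and 307 bp from the gene at the 3 stages in turn. The RpS13 peak at 2nd instar (chr2L:8362035-8362955, IDR 0.018, 273rd) was also outside its gene and nearer to CG7627. RpS27, a small-subunit protein with a zinc-binding fold, had the highest IDR among the members at that stage (IDR 0.0896, 737th of 797). RpLP0-like, a homologue of the yeast assembly factor Mrt4, had a 2nd instar peak with an IDR of 0.0239 that did not touch the gene.

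Mid-3rd instar added 3 members to the high-confidence list. RpL8 (chr3L:2586328-2587474, IDR 0.0552) lies at the peptidyl transferase centre, RpL10Ab (chr3L:11822567-11823003, IDR 0.0824) forms the mobile stalk at the tRNA exit side, and RpS20 (chr3R:20821860-20822236, IDR 0.0635) is in the head of the small subunit. All 3 already had a 2nd instar region, of both replicates at RpL10Ab and RpS20 and of replicate 2 at RpL8. The mid-3rd instar peak at RpL8 overlapped that gene by 19 bp, and its midpoint was nearer to msn. The mid-3rd instar region there (chr3L:2586195-2586856) lay outside the gene and apart from the 2nd instar region (chr3L:2587112-2587711). The members' mid-3rd instar peaks had a median IDR of 0.0476, close to the 0.042 over all peaks of that stage. At 2nd instar the median over members was 0.00144, against 0.0344 over all 797 peaks. RpL15, RpL10, RpL5, RpL38 and RpL30, within 6 Mb of the centromere-proximal arm ends, and RpS3A on chromosome 4 had an IDR of 0.00048 or less. Elsewhere only RpS27A was as low, and the other members with a peak were at 0.0024 or above.

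**Figure D3:**
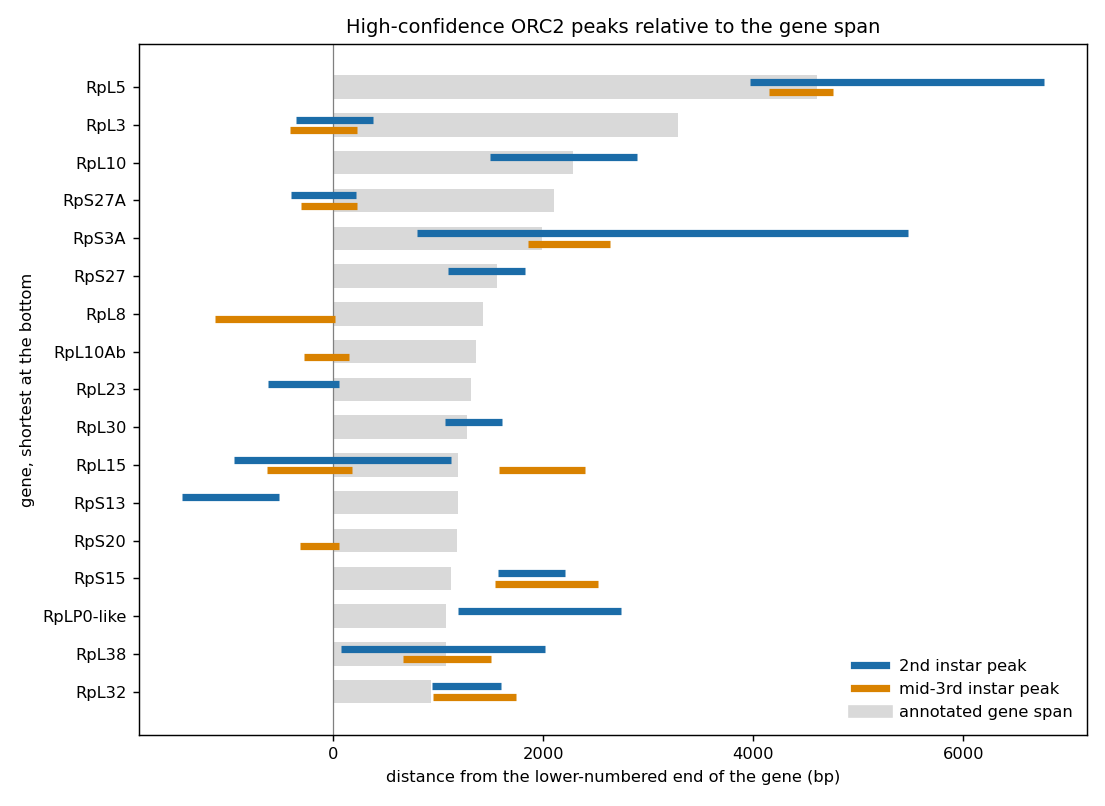
High-confidence ORC2 peaks (coloured lines, 2nd and mid-3rd instar) are drawn against the annotated span of each ribosomal protein gene (grey bars) that had one, by distance in bp from the lower-numbered end of the gene. The direction of transcription is not shown. At 2nd instar 10 of 14 peaks overlapped the gene and held a gene end, and at mid-3rd instar 9 of 12 did.

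Regions often held an end of the gene. The same count was not made over all protein-coding genes, so this is not shown to be particular to the ribosomal protein genes. At 2nd instar 59 distinct regions of the 4239 listed met a member, which made 60 pairs of gene and region because 1 region was shared by the overlapping genes RpL12 and RpL39. A gene end lay inside the region in 42 of 60 pairs, and the region's midpoint lay inside the gene in 18. The midpoint was a median of 206 bp from the nearer gene end. The figures at mid-3rd instar were 25 of 39 pairs, 7 of 39 and 197 bp, and at late-3rd instar 6 of 10 pairs, 1 of 10 and 334.5 bp. Another protein-coding gene was nearer to the midpoint in 20, 15 and 5 pairs at the 3 stages in turn. The least width listed at a member, 600 bp, was common: 28 regions in 2nd instar larvae had it, 24 at mid-3rd instar and then 9 at the last stage. It was the width of every member region that named a single peak. The median width over all listed regions was 617, 600 and 600 bp at the 3 stages in turn. Which end is the transcription start was not analysed here, as no strand was at hand for the genes.

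Ribosomal protein genes on the X were marked by 1 replicate at 2nd instar. At 2nd instar 6 of the 14 X-linked ribosomal protein genes had a region (42.9%, against 20.0% of all X-linked genes), namely RpL35, RpL7A, RpL17, RpL37-1, RpS15Aa and RpS5a. All regions at these 6 genes came from replicate 2 alone, with 0 of 14 genes marked in replicate 1, which allows a share of up to 21.4% by counting error. The replicates did not differ in this way over all X-linked genes, of which replicate 1 marked 15.0% and replicate 2 marked 15.2%. At mid-3rd instar RpL7A was marked in replicate 1 and RpS5a in replicate 2, and no X-linked member had a late-3rd instar region or a high-confidence peak at any stage. On the autosomes 43, 35 and 9 of 78 members had a region at the 3 stages in turn, against 35.7%, 19.2% and 5.42% of autosomal genes.

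**Figure D4:**
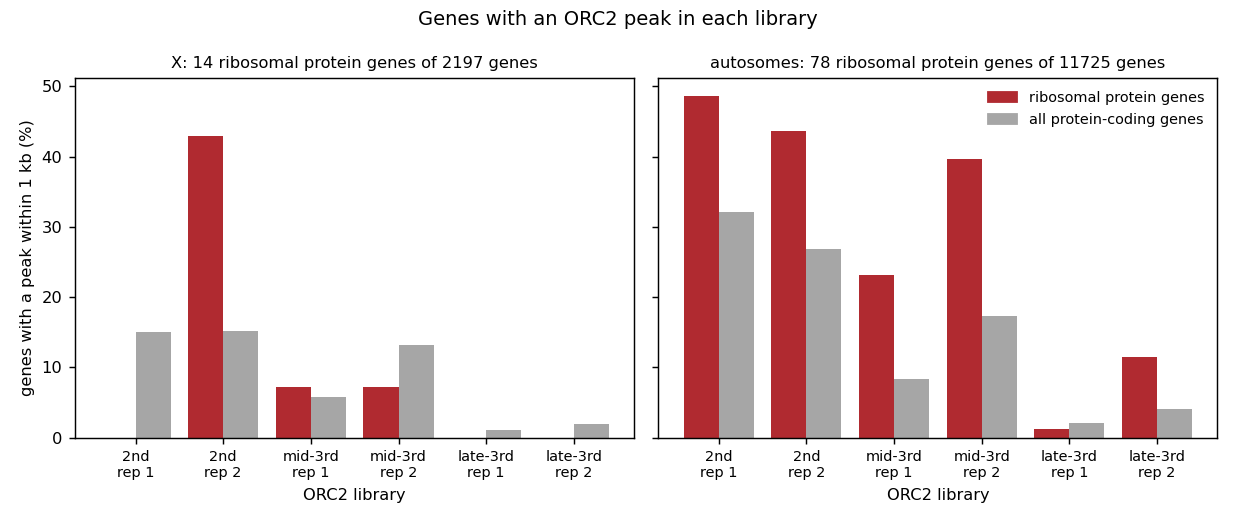
Bars give the percentage of genes with an ORC2 peak within 1 kb in each ORC2 library, for ribosomal protein genes (red) beside all protein-coding genes (grey), on the X (left) and on the autosomes (right). On the X the members stand at 0 in replicate 1 and 42.9% in replicate 2 at 2nd instar, and on the autosomes they stand above all genes in every library but late-3rd instar replicate 1.

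Both subunits carried ORC2. Regions lay at 31 of 54 large-subunit genes (57.4%) and 18 of 38 small-subunit genes (47.4%) at 2nd instar, at 20 (37.0%) and 17 (44.7%) at mid-3rd instar, and at 6 (11.1%) and 3 (7.89%) at late-3rd instar. The order of the subunits thus changed between stages. The shares of all protein-coding genes were 33.1%, 18.5% and 4.95%. High-confidence peaks lay at 9 and 5 genes (16.7% and 13.2%, against 8.38% of all genes) at 2nd instar and at 7 and 4 (13.0% and 10.5%, against 2.83%) at mid-3rd instar. The difference between subunits was not tested.

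Some ribosomal proteins are encoded by more than 1 gene copy, often with 1 copy that serves most tissues. Families were formed here by symbol alone, with -like genes counted as copies whether or not they are parts of the mature ribosome. Of 13 families with a paralogue, holding 27 copies, 5 had a copy with a 2nd instar region, and in all 5 the partner had none at any stage. RpL10Ab had a region and RpL10Aa had none, and the same held for RpL37-1 over RpL37-2, RpS15Aa over RpS15Ab and RpS5a over RpS5b. In the remaining pair the marked gene was the assembly factor RpLP0-like, whose region lay 714 bp outside it, and RpLP0 itself had none. RpS5b is known from the ovary. In the other 8 families (RpL7, RpL22, RpL24, RpL34, RpS10, RpS14, RpS19 and RpS28) no copy had a region at any stage, so 22 of the 27 copies had none, where 62.8% of all protein-coding genes had none. Of the 65 single-copy genes 44 had a 2nd instar region (67.7%), where 33.1% of all protein-coding genes had one. The difference between single-copy and multi-copy genes was not tested. Reads were aligned at Bowtie2 default settings, under which a read that matches several copies equally well is placed at 1 of them. How alike the copies are in sequence was not examined, and the part of read placement in these counts was not tested.

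At 36 genes no region was listed at any stage (39.1%, against 62.8% of all protein-coding genes). On the X these included RpL22, RpL36, RpS6, RpS10b, RpS14a, RpS14b, RpS19a and RpS28b, of which RpS6 is the substrate of S6 kinase in growth signalling. On 2L they included RpL7, RpL7-like, RpL13, RpL24 and RpS28-like, and on 2R RpL19, RpL22-like, RpL31, RpL37-2, RpL41, RpS15Ab and RpS24. On 3L they included RpL28 and RpLP0, the base of the ribosomal stalk, whose partners RpLP1 and RpLP2 each had a region at 1 or more stages. On 3R they included RpL4, RpL6, RpL10Aa, RpL13A, RpL24-like, RpL34a, RpL34b, RpL35A, RpS3, RpS5b, RpS10a, RpS19b and RpS28a. Some of these stood just outside the 1 kb window at 2nd instar: RpS28b was 1158 bp from the nearest region, RpS19a 1265 bp and RpL28 1484 bp. RpL37-2 was the farthest, at 181082 bp. Over all 92 genes the median distance to the nearest region was 284 bp at 2nd instar, 5940 bp at mid-3rd instar and 56440 bp at late-3rd instar, against 5270, 16340 and 89280 bp over all protein-coding genes.

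Other genes of the translation machinery had the following shares. Of 73 mitochondrial ribosomal protein genes 27 (37.0%), 15 (20.5%) and 4 (5.48%) had a region at the 3 stages in turn, against the 33.1%, 18.5% and 4.95% of all protein-coding genes. A high-confidence peak lay at 9 (12.3%), 2 (2.74%) and 0 of these genes, against 8.38%, 2.83% and 0.215% of all protein-coding genes. The lowest IDR was 7.55e-05, at mRpL13. Of 44 translation initiation factor genes 18 (40.9%), 9 (20.5%) and 2 (4.55%) had a region, and 6 (13.6%), 2 (4.55%) and 0 a high-confidence peak. Among these eIF5 had one at both early stages (IDR 0.0244 and 0.0154). Of 10 elongation and release factor genes 5, 5 and 2 had a region and 4, 1 and 0 a high-confidence peak, with eEF1alpha1, which carries aminoacyl-tRNA to the ribosome, at 0.000587 and 0.0348 at the first 2 stages. These lists differed in gene length. The median spans were 909 bp for the mitochondrial ribosomal protein genes, 1968 bp for initiation factors and 3098 bp for elongation and release factors. Over all protein-coding genes it was 2161 bp. No shares weighted to the lengths of these lists were made, and the lists were not tested against each other.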

How the data were processed

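ORC2 ChIP-seq libraries were compared with input libraries from dissected fat body. The authors aligned paired-end reads with Bowtie2, called MACS2 peaks per replicate at a q-value under 0.05 and deposited, per stage, a list of merged regions naming the peaks of each replicate and a list of peaks with an IDR under 0.1. The IDR is a rate like a q-value and was used as deposited, with no p-value made from it. Tool versions and read depth per library are not given in the sources used here, so only the number of peaks per library stands for precision. The labels and methods name build dm3, but positions run past its chromosome ends and match Release 6, so all coordinates are given as Release 6.

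Gene spans came from the RefSeq Release 6 plus ISO1 MT gene table, which gives no strand and no sequence, so the promoter motif search that had been planned was not run and no sequences are shown. A gene was called when a site met its span plus 1 kb to each side. Shares carry 95% Wilson intervals. Background shares weighted to gene length used length classes bounded at 500, 1000, 1500, 2000, 3000 and 5000 bp. Stage differences in the number of genes per library were tested with the exact two-sided permutation test, and the replicates are those the labels call biological. Overlap counting was tested on simulated data. Tables were joined with pandas 2.3.3 under Python 3.11.15, tests used scipy 1.17.1 with numpy 2.4.6, and plots matplotlib 3.10.9.

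The members and lists were chosen with earlier results of these data known. Described in full were genes with a high-confidence peak at 2 or more stages, the 10 with the lowest 2nd instar IDR, those with a late-3rd instar region of both replicates, paralogue pairs with 1 marked copy, and genes with no region. Other genes were named after their values were seen. Not every gene counted is named, as 1 item is not reported here. Alternatives were a window of 0 or 5 kb, the region midpoint, an IDR under 0.05, peaks of both replicates, each replicate left out, no shared regions and no -like genes. Leaving out the X, the inner arms or multi-copy families, and the nearest-gene rule, were chosen after seeing the data.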

Additional observations from a re-analysis of the deposited data

How the results depend on the processing

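Of 140 recomputed values 118 stayed within 1.5 times the reported count, inside the range the Wilson interval gives for a ratio, or on the same side of 0 for a stage difference. Among these, the late-3rd instar ratio of 1.98 became 3.27 with length weighting and 1.26 by the nearest-gene rule, the mid-3rd instar high-confidence ratio of 4.22 became 2.6 with a window of 5 kb, and that of 1.82 at 2nd instar became 2.8 with length weighting. Leaving out each replicate gave 38 to 40 genes with a region at 2nd instar, 19 to 32 at mid-3rd instar and 1 to 9 at late-3rd instar. The ratio to all genes then ran from 1.41 to 1.74, from 2.09 to 2.6 and from 0.564 to 2.59. Over all alternatives 55 of 56 recomputed ratios were above 1, but these are overlapping recounts of the same lists. They leave out late-3rd instar high-confidence peaks, where 0 of 92 genes had one and no ratio was recomputed. The low ends at late-3rd instar were without replicate 2, which marked all 9 genes, 8 of them alone. Regions with peaks of both replicates lay at 29, 14 and 1 genes. With length weighting the ratio was 2.14 at 2nd instar and 3.07 at mid-3rd instar. A window of 5 kb gave ratios of 1.28 and 1.61 at these stages, 14 late-3rd instar genes with a region and 1 with a high-confidence peak. An IDR under 0.05 left 6 mid-3rd instar genes. Without the multi-copy families the ratio was 2.04 at 2nd and 2.82 at mid-3rd instar. Outside the inner 6 Mb of the arms and chromosome 4, 5 of 81 genes had a late-3rd instar region, and the ratio of 1.98 became 1.44. High-confidence peaks lay at 8 genes at 2nd instar, where the ratio of 1.82 became 1.34. At mid-3rd instar they lay at 7, where 4.22 became 3.87. The ratios for regions there were 1.65 at 2nd and 2.14 at mid-3rd instar. By the nearest-gene rule, 23 mid-3rd and 4 late-3rd instar genes had a region and 6 at 2nd instar had a high-confidence peak. With the share of all genes subtracted, the mid-3rd minus 2nd instar difference reversed to 0.176 percentage points, which is by construction a change of quantity. With the replicate number as a block, added after the data were seen, the stage differences stayed at -13.5, -34.0 and -20.5 genes with an exact p = 0.5 each, the smallest that 2 pairs allow. The unknown read depth and the small late-3rd instar lists limit what can be detected, and a gene with no region is one where none was called.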

Other observations

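Several of the lowest IDR values belonged to genes near the inner, centromere-proximal ends of the arms. Within 6 Mb of those ends of 2L, 2R, 3L and 3R lay 10 ribosomal protein genes: RpS26, RpL30, RpL21, RpL5, RpL38, RpLP0, RpL10, RpL15, RpL35A and RpL13A. Of these 6, 7 and 3 had a region at the 3 stages in turn, against 51.0%, 37.2% and 8.63% of the 1008 protein-coding genes there. High-confidence peaks lay at 5, 3 and 0 of the 10, against 18.0%, 8.23% and 0.595%. Over the remaining 67 members on these arms, 36, 27 and 5 had a region, against 33.8%, 17.2% and 4.69% of genes there, and 8, 7 and 0 had a high-confidence peak, against 8.2%, 2.27% and 0.122%. Within 2 Mb of the ends lay RpL21, RpL5 and RpL15, of which 3, 3 and 2 had a region, against 83.2%, 78.4% and 19.5% of the 190 genes there, and 2, 2 and 0 a high-confidence peak, against 49.5%, 28.9% and 2.11%. Within 4 Mb lay the same 3 members, against 66.4%, 52.6% and 12.6% of 428 genes with a region and 29.9%, 15.2% and 1.17% with a high-confidence peak. These parts of the genome were delimited after the data were seen, and the difference between them was not tested.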
